A study of Mus musculus with 15 samples.

Results

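Mammary glands of BALB-neuT mice at 22 weeks of age were compared with those at 10 weeks, the oldest and the youngest of the ages the series sampled. The comparison rests on 9 of the 15 arrays, 5 at week 10 and 4 at week 22, chosen by the age in the source label, and the series design assigns an animal to each array. Every mouse in both groups was BALB-neuT and the labels give no treatment, so the effect of the transgene and that of growing older cannot be told apart. Total RNA of gland whole mounts was hybridised to single-colour chemiluminescent AB1700 arrays, and each value below is a log2 signal after quantile normalization over the 15 arrays unless a fold is named. Values of single arrays are given in the order of their replicate numbers, and a difference (week 22 minus week 10) is followed by its SE. In an extract of a whole gland, a change in the number of cells of a type and a change in RNA per cell cannot be told apart.

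BALB-neuT mice express an activated rat HER-2/neu receptor in the mammary epithelium under a mouse mammary tumour virus promoter, and their glands pass with age from hyperplasia to multifocal carcinoma. The mammary gland is a branched epithelium embedded in fat. Its secretory cells make caseins and whey proteins under prolactin, which acts through the transcription factor STAT5, while leukocytes, vessels and skin appendages near the gland add their own transcripts to a whole mount.

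The 3 casein genes gave the greatest increases among the genes that could be named, and Wap is the other named milk protein gene, so the 250 bases before the start of 3 of them are shown, 5′ to 3′ on the gene's strand, from the RefSeq promoter table of mouse build GRCm38.p6. The regions are chr5:87699426-87699675 on the minus strand for Csn2, chr5:87774200-87774449 on the plus strand for Csn1s2a and chr11:6638650-6638899 on the minus strand for Wap. Capitals mark the motif TTCNNNGAA, the form bound by STAT5, which reads the same on both strands.
Csn2: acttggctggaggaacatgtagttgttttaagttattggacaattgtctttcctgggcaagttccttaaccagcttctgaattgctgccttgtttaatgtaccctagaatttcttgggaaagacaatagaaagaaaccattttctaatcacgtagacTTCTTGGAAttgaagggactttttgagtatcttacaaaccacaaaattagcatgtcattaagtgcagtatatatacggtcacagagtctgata
Csn1s2a: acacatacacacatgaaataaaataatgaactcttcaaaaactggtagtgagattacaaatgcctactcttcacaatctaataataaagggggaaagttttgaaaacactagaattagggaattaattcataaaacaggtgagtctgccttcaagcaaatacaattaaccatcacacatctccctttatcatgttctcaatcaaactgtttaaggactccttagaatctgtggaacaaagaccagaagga
Wap: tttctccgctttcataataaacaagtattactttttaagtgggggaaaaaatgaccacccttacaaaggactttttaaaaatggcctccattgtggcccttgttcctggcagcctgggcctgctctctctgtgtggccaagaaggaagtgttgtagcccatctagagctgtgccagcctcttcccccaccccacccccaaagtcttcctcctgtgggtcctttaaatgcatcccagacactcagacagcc
Csn2 held the motif 1 time, beginning 93 bases before the start, and these letters were not found in the windows of Csn1s2a and Wap. Of 32851 promoters in the table, 2306 (7.02%) held it in the same window. Among the named genes described below, 1 of the 15 higher genes with an entry (Csn2) and 1 of the 6 lower genes with an entry (Peg12) held it.

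The scale of the change was first read over all probes. A probe was kept where at least 50% of an age's arrays lay above background, meaning a signal at least 3 times its noise. Of the 20867 probes kept, 2495 (12%) differed between week 22 and week 10 at an adjusted p of 0.05 (limma, Benjamini-Hochberg). The increases numbered 1623 (7.78%) and the decreases 872 (4.18%), and the median change over all probes was -0.01. The increases were also the larger ones: 439 of them and 63 of the decreases were at least 4-fold, and 47 and 2 were at least 16-fold. The median week 10 level was 11.84 for the probes that rose and 13.85 for those that fell. At week 22 the order was reversed, at 13.49 and 12.77. The probes were split by the change between these same ages, so the split itself partly sets these levels. With each array centred on its median in place of quantile normalization, the median change of all probes moved to 0.14 and the calls to 2674 higher and 500 lower, so that 84.2% of the calls were increases in place of 65.1%.

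**Figure D1:**
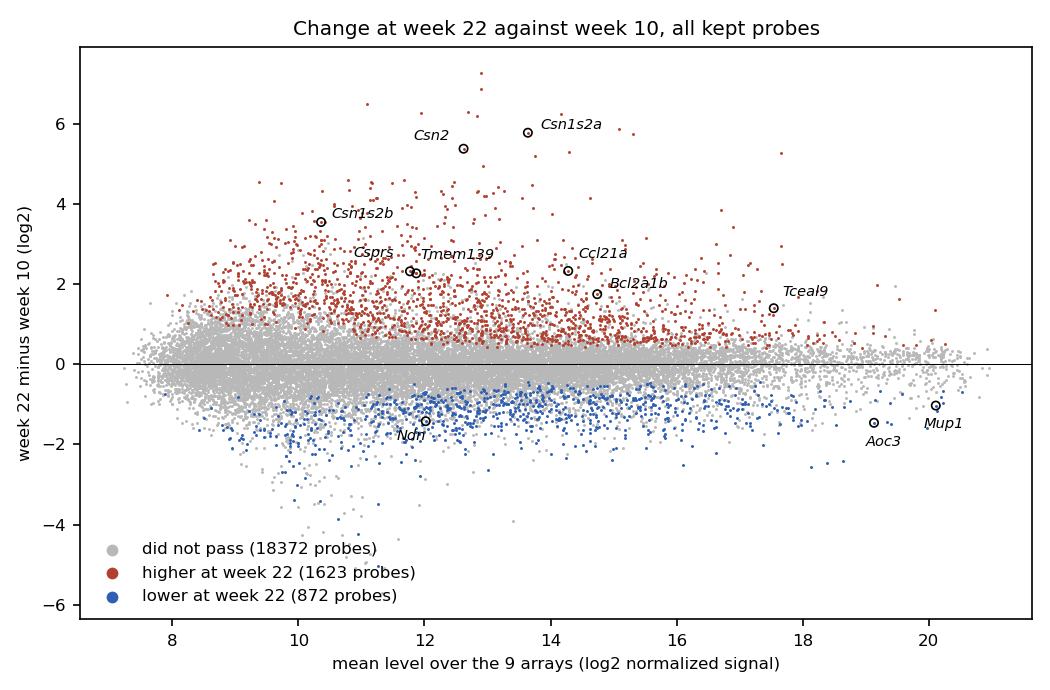
Change at week 22 against week 10 (log2, vertical axis) against the mean level over the 9 arrays (log2 normalized signal, horizontal axis) for each of the 20867 kept probes, with the called probes coloured by direction and some called named genes ringed and labelled. The 1623 increases reach further from 0 than the 872 decreases.

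The share of detectable probes overlapped between the ages. The share of probes above background was 51.43 ± 1.63% (SD, n = 5) at week 10 and 51.99 ± 1.03% (SD, n = 4) at week 22, a difference of 0.56 percentage points (two-sided exact permutation test over 126 splits, p = 0.563). A change from below background on all week 10 arrays to above it on all week 22 arrays was seen for 92 probes, and the opposite for 18. Among the 12525 probes above background on all 9 arrays, 13.5% were called, 1002 higher and 690 lower. With the probes ranked by signal in 4 bins of equal size, 5.46% of the dimmest bin were called, and 12.8%, 15.1% and 14.4% of the next 3.

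Gene names were available for 207 genes among the kept probes, and 27 of these (13.0%, against 12% of all probes) passed the test, 19 higher and 8 lower. In all 27 the week 10 and week 22 arrays did not overlap. Among all called probes this held for 1444 of the 1623 increases and 664 of the 872 decreases, and over all probes, called or not, for 15.3% (10.0% higher and 5.24% lower). It was also true of 16 named genes that did not pass. Most other probes carry Celera or clone identifiers that the tables used here do not name, so markers of luminal cells, T cells, B cells and macrophages could not be read. The tissue markers that could be read were those of milk-producing epithelium (Csn2, Csn1s2a and Wap), of fat (Aoc3), of basal epithelium (Lgals7), of lymphoid stroma (Ccl19, Ccl21a and Ccl21b), of blood (Hba-a1) and of hair follicles.

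**Figure D2:**
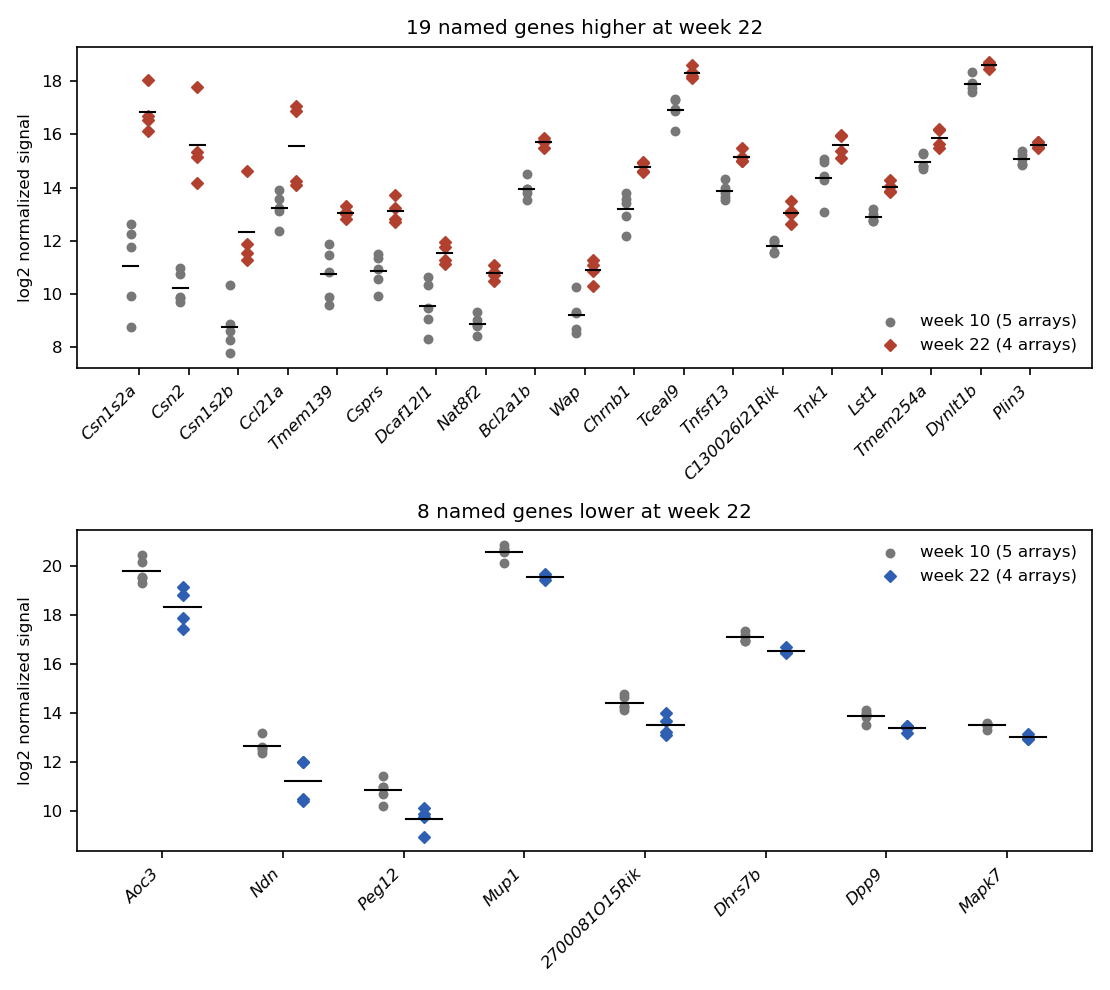
Log2 normalized signal of the 19 named genes higher (top) and the 8 named genes lower (bottom) at week 22, with a grey circle for each of the 5 week 10 arrays, a coloured diamond for each of the 4 week 22 arrays and a black line at each mean. In none of the 27 genes do the 2 ages overlap, and the 2 caseins on the left are the farthest apart.

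All 4 milk protein genes that could be named rose, beside 7.78% of all kept probes, with a median change of 4.46 beside -0.01. Members of this and the later lists were chosen with earlier results of these data known. Csn2, Csn1s2b and Wap were kept only through weeks 19 and 22, the ages at which they were above background on enough arrays. The count and the median of the milk protein genes are thus partly set by the filter and are no test. Csn1s2a, which encodes an alpha-S2-like casein, gave 12.63, 12.26, 9.92, 11.79 and 8.76 at week 10 and 16.13, 18.03, 16.54 and 16.69 at week 22 (5.78 ± 0.92, 54.9-fold higher, adjusted p 0.00167). Csn2, the gene of beta-casein, gave 10.97, 10.74, 9.85, 9.89 and 9.70 at week 10 and 14.16, 17.80, 15.14 and 15.33 at week 22 (5.38 ± 0.84, 41.5-fold higher, adjusted p 0.00154). The lowest week 22 array stood 3.51 above the highest week 10 array for Csn1s2a and 3.19 for Csn2, and in both genes week 22 replicate 2 was the highest array.

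Csn1s2b, the neighbouring alpha-S2-like casein gene, gave 7.78, 8.28, 8.63, 8.86 and 10.35 at week 10 and 11.87, 14.62, 11.29 and 11.54 at week 22 (3.55 ± 0.86, 11.7-fold higher, adjusted p 0.0186). Wap, which encodes whey acidic protein, gave 9.33, 10.27, 8.70, 9.30 and 8.53 at week 10 and 10.32, 11.10, 10.86 and 11.28 at week 22 (1.66 ± 0.43, 3.16-fold higher, adjusted p 0.0243). Wap had the smallest increase of the 4, and its lowest week 22 array, replicate 1, was only 0.05 above its highest week 10 array. Only 1 of the 5 week 10 arrays had Csn2 above background, and likewise for Csn1s2b and for Wap, while 4 had Csn1s2a above it. At week 22 the caseins exceeded background on all 4 arrays and Wap on 3. The week 10 means of Csn2, Csn1s2b and Wap therefore lie near background, and their folds depend on the signal deposited there and are not exact ratios. Scan day, the date in an array's headers, goes with age in part. With it as a block, Csn1s2b (2.83, adjusted p 0.07) and Wap (1.59, adjusted p 0.0692) did not pass. Without the 3 week 10 arrays with high hair keratin signal Csn1s2b did not either (2.84, adjusted p 0.163).

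The list of chemokines, cytokines and their receptors kept 5 genes of 7 named. Of the 5, 2 rose and 0 fell, against 7.78% and 4.18% of all kept probes, and the median change was 2.10 against -0.01. One of the 5, Tnfaip8l1 (0.05 ± 0.25), was caught by its name prefix and is none of these. Another 3 are Ccl19, Ccl21a and Ccl21b, ligands of the same receptor. The median of 2.10 is the value of Ccl21b, so it does not describe chemokines and cytokines in general. Tnfsf13, which encodes the B cell survival cytokine APRIL, gave 14.34, 13.82, 13.54, 13.98 and 13.65 at week 10 and 15.01, 15.17, 15.02 and 15.48 at week 22 (1.31 ± 0.18, 2.47-fold higher, adjusted p 0.000588). All 4 week 22 arrays of Tnfsf13 lay above 15, all 5 week 10 arrays below it, and this gene had the smallest adjusted p of the 27. Ccl21a, a ligand of the chemokine receptor that draws lymphocytes and dendritic cells into lymphoid tissue, gave 13.23, 12.38, 13.12, 13.92 and 13.58 at week 10 and 14.25, 14.10, 16.89 and 17.06 at week 22 (2.33 ± 0.69, 5.01-fold higher, adjusted p 0.0445). Week 22 replicates 3 and 4 were more than 2 above replicates 1 and 2, and without replicates 3 and 4 its difference was 0.93 (adjusted p 0.44).

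Ccl21b and Ccl19, ligands of the same receptor, split in the same way. Of the 2 Ccl21b probes only the dimmer passed: the brighter gave 13.75, 13.37, 13.75, 14.68 and 14.13 at week 10 and 14.72, 14.52, 17.26 and 17.65 at week 22 (2.10 ± 0.70, adjusted p 0.0664), and the dimmer had a difference of 2.43 ± 0.62 (adjusted p 0.0239). Ccl19 did not pass, with 10.54, 10.09, 11.38, 12.03 and 12.48 at week 10 and 12.71, 12.45, 14.40 and 14.67 at week 22 (2.25 ± 0.69, adjusted p 0.0508). Ccl21a and Ccl21b are near-identical copies, so their probes may not read them apart.

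Leukocyte genes kept numbered 4 of 5 named, of which 2 rose and 0 fell, against 7.78% and 4.18% of all kept probes. Their median change was 0.62, against -0.01 for all probes. Bcl2a1b, an anti-apoptotic BCL2 relative of leukocytes, gave 13.81, 13.94, 13.54, 14.53 and 13.95 at week 10 and 15.88, 15.49, 15.75 and 15.72 at week 22 (1.75 ± 0.24, 3.37-fold higher, adjusted p 0.000678). Lst1, a leukocyte-specific transcript of the MHC region, gave 13.02, 12.75, 12.78, 13.20 and 12.74 at week 10 and 14.29, 14.08, 13.88 and 13.84 at week 22 (1.12 ± 0.20, 2.18-fold higher, adjusted p 0.00371). In both genes every week 22 array was at least 0.64 above every week 10 array, and the SD within an age was 0.16 to 0.36 for Bcl2a1b and 0.20 to 0.21 for Lst1. Bcl2a1b has near-identical copies that a probe may also read. Cd99 and Tlr7 did not pass, with differences of -0.06 ± 0.16 and 0.13 ± 0.39.

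The interferon-inducible and MHC list held 4 genes, of which 1 rose and 0 fell, against 7.78% and 4.18% of all kept probes. Its median change was 0.62, against -0.01 for all probes. Csprs, a member of a multicopy mouse gene family, gave 10.57, 11.35, 9.92, 11.51 and 10.93 at week 10 and 13.71, 13.24, 12.72 and 12.84 at week 22 (2.27 ± 0.34, 4.83-fold higher, adjusted p 0.00122). The other 3 did not pass: H2-Q8, an MHC class I gene, differed by a mean of 0.91 ± 0.34 (adjusted p 0.0955), H2-Q7 by 0.34 ± 0.20 and Ifi202b by 0.33 ± 0.28. The 4 week 22 arrays of H2-Q8 were all above the 5 week 10 arrays.

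Nat8f2, of the N-acetyltransferase 8 family, was the only named gene that went from below background on all week 10 arrays to above it on all week 22 arrays. It gave 8.42, 9.34, 8.79, 9.02 and 8.83 at week 10 and 10.71, 10.83, 10.50 and 11.10 at week 22 (1.91 ± 0.27, 3.76-fold higher, adjusted p 0.000719). The week 10 signals of Nat8f2 were below background, so its fold depends on the signal deposited there and is not an exact ratio. Its signal-to-noise at week 22 was 3.8, 4.7, 4.4 and 13.3. C130026I21Rik, a gene known by its clone name, gave 11.53, 11.60, 12, 11.94 and 12.02 at week 10 and 13.51, 13.11, 12.64 and 13.01 at week 22 (1.25 ± 0.20, 2.38-fold higher, adjusted p 0.00151). The nearest arrays of the 2 ages stood 0.61 apart in C130026I21Rik.

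Tmem139, which encodes a membrane protein, gave 11.88, 11.49, 9.60, 10.83 and 9.91 at week 10 and 13.03, 12.82, 13.10 and 13.31 at week 22 (2.32 ± 0.39, 4.99-fold higher, adjusted p 0.00253). Chrnb1, the beta subunit of the muscle acetylcholine receptor, gave 13.42, 13.82, 12.18, 13.57 and 12.92 at week 10 and 14.59, 14.64, 14.95 and 14.93 at week 22 (1.59 ± 0.27, 3.02-fold higher, adjusted p 0.00257). Week 10 replicate 3 was the lowest array of both genes. Tnk1, a non-receptor tyrosine kinase, gave 14.45, 14.98, 13.07, 15.07 and 14.29 at week 10 and 15.13, 15.38, 15.93 and 15.99 at week 22 for its brighter probe (1.23 ± 0.36, 2.35-fold higher, adjusted p 0.0426), and its other probe changed by 1.37 ± 0.38 (adjusted p 0.0323). Its week 10 replicate 3 was again the lowest array, at 13.07 on the brighter probe.

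Tceal9, a transcription elongation factor A-like gene, gave 17.33, 16.95, 16.12, 17.31 and 16.88 at week 10 and 18.20, 18.12, 18.34 and 18.61 at week 22 (1.40 ± 0.26, 2.64-fold higher, adjusted p 0.00389). Dcaf12l1 gave 9.05, 9.49, 8.33, 10.36 and 10.63 at week 10 and 11.14, 11.30, 11.96 and 11.79 at week 22 (1.97 ± 0.47, 3.92-fold higher, adjusted p 0.0174), with 4 of 5 week 10 arrays above background. Both were separated by at least 0.51 between the nearest arrays. Dynlt1b, a dynein light chain gene with near-identical copies, gave 18.35, 17.74, 17.88, 17.95 and 17.60 at week 10 and 18.74, 18.68, 18.47 and 18.61 at week 22 (0.72 ± 0.16, 1.65-fold higher, adjusted p 0.0106). Tmem254a gave 15.30, 14.71, 15.25, 14.83 and 14.82 at week 10 and 15.48, 15.65, 16.18 and 16.20 at week 22 (0.89 ± 0.26, 1.85-fold higher, adjusted p 0.0419). In Dynlt1b and Tmem254a the nearest arrays of the 2 ages stood 0.12 and 0.18 apart, and without week 22 replicates 3 and 4 the difference of Tmem254a was 0.58 (adjusted p 0.331).

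The fat and lipid droplet genes split, with 1 higher, 1 lower and 1 that did not pass. Of all kept probes 7.78% were higher and 4.18% lower. The median change of the list, 0.52, is the value of Cebpb alone and does not describe fat genes. Plin3, a perilipin that coats lipid droplets, gave 14.89, 14.85, 15.38, 15.08 and 15.24 at week 10 and 15.73, 15.73, 15.53 and 15.50 at week 22 (0.53 ± 0.15, 1.45-fold higher, adjusted p 0.0329). Aoc3, an amine oxidase on adipocytes, smooth muscle and vessels, gave 19.30, 19.48, 20.45, 19.54 and 20.13 at week 10 and 19.14, 18.82, 17.88 and 17.43 at week 22 (-1.46 ± 0.42, 2.76-fold lower, adjusted p 0.0377). Without the 3 week 10 arrays with high hair keratin signal Plin3 did not pass (0.31, adjusted p 0.286). Week 22 replicates 3 and 4 were lowest for Aoc3, and without them its difference was -0.80 (adjusted p 0.35). With each array centred on its median, Aoc3 did not pass either (-1.14, adjusted p 0.118). Cebpb, a transcription factor of fat and mammary cells, did not pass (0.52 ± 0.19, adjusted p 0.0929).

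Of 4 imprinted genes kept of 5 named, 0 rose and 2 fell, against 7.78% and 4.18% of all kept probes. The median was -0.90, against -0.01 for all probes. Ndn, which encodes necdin, gave 12.60, 12.48, 13.18, 12.38 and 12.59 at week 10 and 12.02, 12, 10.48 and 10.40 at week 22 (-1.42 ± 0.36, 2.68-fold lower, adjusted p 0.0223). Peg12, expressed from the paternal allele near Ndn, gave 10.97, 10.97, 11.41, 10.19 and 10.69 at week 10 and 8.96, 10.11, 9.77 and 9.88 at week 22 (-1.17 ± 0.31, 2.24-fold lower, adjusted p 0.0274), and was above background on all week 10 arrays and on 2 week 22 arrays. Week 22 replicates 3 and 4 were the lowest for Ndn and without them its difference was -0.64 (adjusted p 0.246). Gnas and Mkrn3 did not pass, at -0.64 ± 0.26 and 0.17 ± 0.23. The 3 measured genes of chromosome 7 from Ndn to Peg12 thus gave 2 decreases (Ndn and Peg12) and no call for Mkrn3.

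Mup1, of the major urinary proteins, fell. It gave 20.84, 20.69, 20.56, 20.67 and 20.11 at week 10 and 19.41, 19.58, 19.64 and 19.52 at week 22 (-1.03 ± 0.19, 2.05-fold lower, adjusted p 0.00462), with the 4 week 22 arrays close together. Mup genes are near-identical copies, so the probe may read several. Mapk7, the kinase ERK5, gave 13.57, 13.48, 13.55, 13.32 and 13.56 at week 10 and 13.00, 12.93, 13.14 and 12.95 at week 22 (-0.49 ± 0.13, 1.41-fold lower, adjusted p 0.0263), with the ages 0.18 apart at their nearest. Dhrs7b, a reductase of ether lipid synthesis, gave 17.19, 16.95, 17.34, 16.94 and 16.94 at week 10 and 16.50, 16.70, 16.45 and 16.48 at week 22 (-0.54 ± 0.15, 1.46-fold lower, adjusted p 0.0305). Dpp9, a cytosolic dipeptidyl peptidase, gave 13.84, 14.10, 13.52, 13.96 and 14.01 at week 10 and 13.39, 13.20, 13.46 and 13.47 at week 22 (-0.51 ± 0.14, 1.42-fold lower, adjusted p 0.0364), and 2700081O15Rik gave 14.10, 14.24, 14.65, 14.28 and 14.76 at week 10 and 14.01, 13.67, 13.24 and 13.10 at week 22 (-0.90 ± 0.23, 1.87-fold lower, adjusted p 0.0249). The decreases of Mapk7, Dhrs7b, Dpp9 and 2700081O15Rik were all under 2-fold. Their calls, like that of Aoc3 above, ended when each array was centred on its median. The differences were then -0.28 (adjusted p 0.253) for Mapk7, -0.30 (0.372) for Dhrs7b, -0.28 (0.241) for Dpp9 and -0.65 (0.0943) for 2700081O15Rik.

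Chromosomal stretches were read only where a called gene had its start within 500000 bases of another called gene. Each stretch was cut at its outermost called genes, and measured genes beyond them were left out. The stretches therefore do not show how neighbours of called genes move in general. On chromosome 5 the 3 measured casein genes all rose. In the stretch on chromosome 11, Tnfsf13, Chrnb1 and Tnk1 rose while Fgf11 (-0.39 ± 0.27, adjusted p 0.377) did not pass. On chromosome 17 the neighbours Plin3 and Dpp9 moved in opposite directions.

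The named genes just past the threshold on either side were close in value. Ccl21a was the last to pass at 0.0445, and after Ccl19 came Epdr1 (0.69 ± 0.21, adjusted p 0.0526), Nupr1l (-0.60 ± 0.19, adjusted p 0.0584), Trim34a (0.72 ± 0.23, adjusted p 0.0618) and Sowahc (-0.96 ± 0.32, adjusted p 0.0663). Epdr1 and Trim34a had no overlap between the ages. Stat5a, the transcription factor that acts on casein genes, was named after its values were seen. It gave 14.81, 15.14, 14.90, 15.20 and 15.85 at week 10 and 14.50, 14.60, 14.54 and 14.57 at week 22 (-0.63 ± 0.22, adjusted p 0.0783), so every week 22 array was below every week 10 array without passing the test, and Stat5b had a difference of -0.29 ± 0.16 (adjusted p 0.263).

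Among the named genes, the greatest differences that did not pass were led by hair genes. Krt25, a keratin of the hair inner root sheath, gave 18.74, 17.62, 8.32, 15.33 and 8.06 at week 10 and 8.88, 8.43, 8.86 and 7.97 at week 22 (-5.08 ± 1.90, adjusted p 0.0982). Week 10 replicates 1, 2 and 4 were high, at 15.33 or more, and the other 2 week 10 arrays and all 4 week 22 arrays were below background. Krt27, Prr9, Krtap1-5, Krtap4-7 and Krtap6-1 had the same 3 high arrays, with mean differences from -4.93 to -2.81. None of the 9 hair and skin genes kept passed, with a median change of -2.81, and without those 3 week 10 arrays the median was 0.44. The part that hair transcripts have in the other differences was not tested. Without those arrays week 10 rests on replicates 3 and 5 alone. Replicate 3 was the lowest of its age in 46.8% of all called increases and the highest in 40.4% of the decreases. In that setting 1559 of the 2495 calls passed, for 16 of the named genes, and this count does not show the part of hair. Krt23, a keratin of simple epithelia, gave 15.30, 14.60, 12.43, 14.85 and 14.21 at week 10 and 15.29, 15.38, 15.71 and 16.07 at week 22 (1.33 ± 0.45, adjusted p 0.0708). Without week 10 replicates 1, 2 and 4 its difference was 2.29 (adjusted p 0.00977), with its lowest array, replicate 3, still included.

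**Figure D3:**
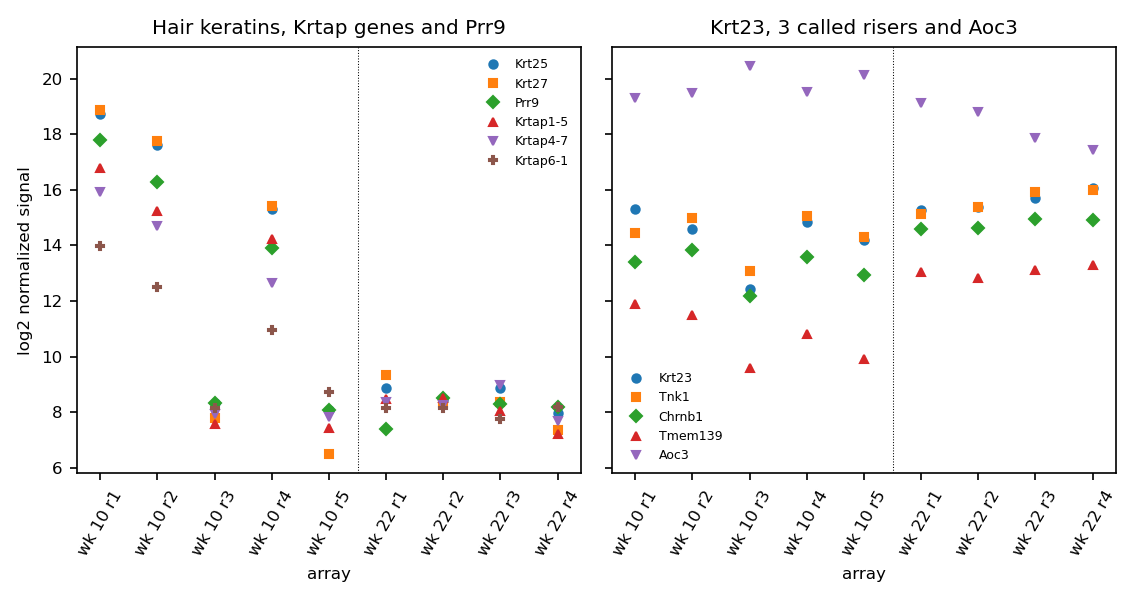
Log2 normalized signal of 6 hair genes (left) and of Krt23, Tnk1, Chrnb1, Tmem139 and Aoc3 (right) on each of the 5 week 10 and 4 week 22 arrays, separated by a dotted line. The hair genes are high on week 10 replicates 1, 2 and 4, and Krt23, Tnk1, Chrnb1 and Tmem139 are lowest on week 10 replicate 3.

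The remaining lists gave no called member. The list for luminal and basal epithelium kept 3 genes, of which Krt23 alone is a keratin; Fgf11 and Fgf21 (-0.68 ± 0.52) are growth factor genes caught by their name prefix, so its median of -0.39 (the value of Fgf11) does not describe epithelium. Neural and sensory genes (12 kept of 57 named, median -0.08), red blood cells (Hba-a1, -0.49 ± 0.30), immediate early genes (Jun, 0.12 ± 0.32) and Cdc42ep1 (-0.60 ± 0.62), the single gene that the cell cycle list caught by its name although it is not a cell cycle gene, did not pass. Sox11 (-1.10 ± 0.44) and Olfr1253 (1.72 ± 0.76) were the nearest of the neural and sensory genes.

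The ages between were measured in the same fit against the same 5 week 10 arrays, so their values are given side by side. At week 15, with 2 arrays, 0.0335% of all probes were called and at week 19, with 4 arrays, 12.5%. Csn2 stood at 0.28 at week 15, 4.11 at week 19 and 5.38 at week 22, and Csn1s2a at 0.05, 4.25 and 5.78. Csn1s2b stood at -0.78, 1.39 and 3.55, and Wap at -0.10, 0.77 and 1.66. Ccl21a had its greatest value at week 19, with 2.27, 4.83 and 2.33. Aoc3 stood at 0.46, -1.54 and -1.46, and Bcl2a1b at 0.64, 1.99 and 1.75. Differences between weeks 19 and 22 were not tested.

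**Figure D4:**
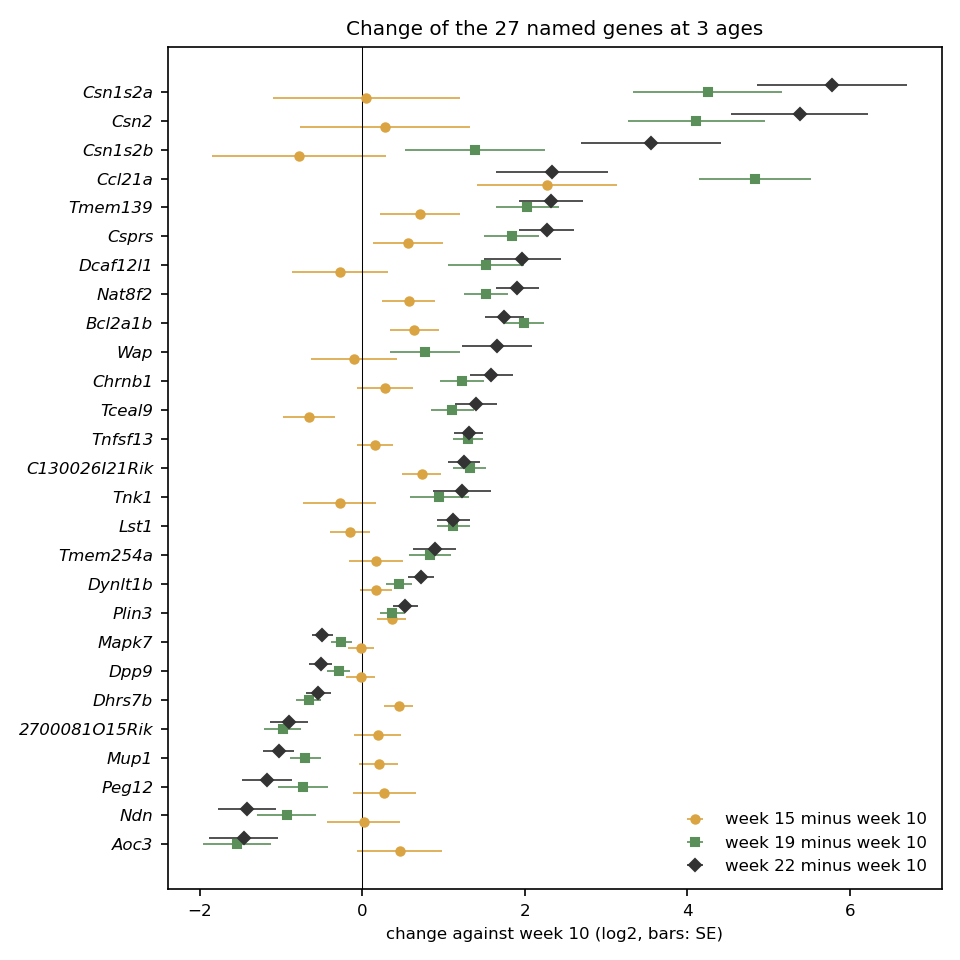
Change against week 10 (log2, bars: SE) of the 27 named genes at weeks 15, 19 and 22, with 2, 4 and 4 arrays. All 3 ages are set against the same 5 week 10 arrays. Csn2 and Csn1s2a lie near 0 at week 15 and above 4 at week 19.

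Single arrays weighed on the calls. Week 10 replicate 3 was the lowest of its age in 46.8% of the called increases and the highest in 40.4% of the decreases. Week 22 replicate 4 was the highest in 55.2% of the increases and the lowest in 47.7% of the decreases. The calls were drawn from these same arrays, and the shares over all kept probes were not computed. Without replicate 3 of week 22, 1519 probes and 15 named genes were called, and without replicate 4, 1211 and 14. On scan day 1 only replicate 1 of week 22 was read, beside 4 week 10 arrays; the difference of Csn2 was 3.80 within scan day 1 and 6.39 within scan day 2, and that of Mup1 was -1.28 within scan day 1 and -0.52 within scan day 2. A total of 1110 calls held in each of 9 omissions of an array, and 615 held without week 22 replicates 3 and 4. Those replicates share a scan day and an array series, meaning a run of close serial numbers. Under these omissions, scan day and array series as blocks, and median centring, 540 calls held, 455 higher and 85 lower. They included 10 of the 27 named genes: Tnfsf13, Bcl2a1b, Nat8f2, Csprs, C130026I21Rik, Csn2, Csn1s2a, Tmem139, Lst1 and Mup1. Leaving out the 3 week 10 arrays with high hair keratin signal as well kept 499 calls and all of these genes but Mup1 (adjusted p 0.0732). Of the 9 omissions of single arrays, Ccl21a, Plin3 and Dpp9 lost their call in 7, Aoc3 and Tmem254a in 6, Wap, Peg12, Dhrs7b and Tnk1 in 5, 2700081O15Rik and Mapk7 in 3, and Ndn and Dcaf12l1 in 2. With scan day as a block 15 named genes passed, and the calls of Csn1s2b, Wap, Tnk1, Tmem254a, Plin3, Ccl21a, Ndn, 2700081O15Rik, Mapk7, Dhrs7b, Dpp9 and Aoc3 were lost.

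**Figure D5:**
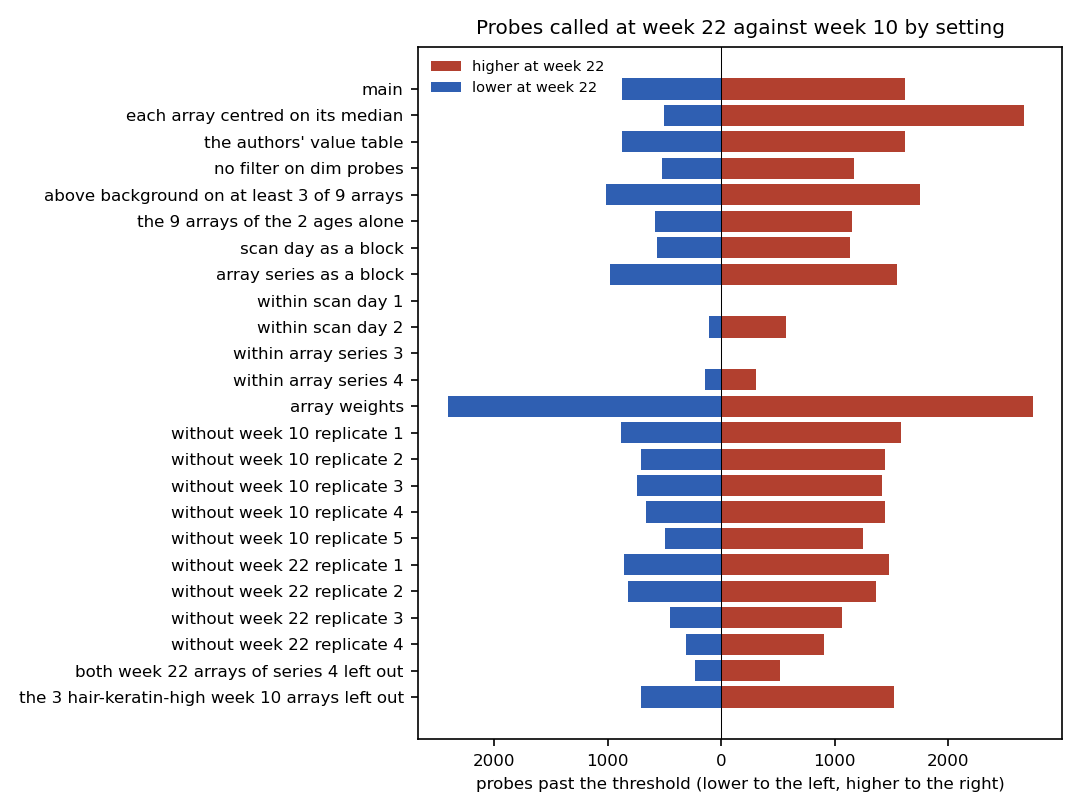
Number of probes called higher (to the right) and lower (to the left) at week 22 under the main setting and each alternative. Increases outnumber decreases in the main setting (1623 against 872), and the number falls to 4 within scan day 1, which holds 1 week 22 array, and to 0 within array series 3, which also holds 1.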

How the data were processed

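Total RNA of 15 gland whole mounts was hybridised to AB1700 arrays, per the labels, with an animal for each array per the series design. The deposited files give, per the file headers, a signal intensity on a linear scale, a signal-to-noise score and a flag for each probe, and log2 values, quantile normalized by the authors, fill the deposited value table. The treatment of background was not given in the sources used here.

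Log2 signals of 33012 probes were quantile normalized over the 15 arrays. A probe was above background at a signal-to-noise of at least 3 and a flag under 5000, and was kept if so in at least 50% of the arrays of an age (20867 probes). R 4.3.3 and limma 3.58.1 gave the differences by lmFit and eBayes, with two-sided p-values, over all 15 arrays with age at 4 levels, and p-values were adjusted by Benjamini-Hochberg over all kept probes at 0.05. The fit was also run on simulated data with independent noise, fewer changed probes and no batch effect, so that run shows little about these arrays. In the 9 arrays the median raw signal was 849.6 to 1626, and 31.62% to 35.35% of probes had a signal equal to its SD, which marks a floor. The number of arrays limits the precision.

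Accessions were matched to RefSeq genes of GRCm38.p6, which named 317 probes for 311 genes. The probe with the highest mean stood for its gene. Named in the text are all called named genes, the 6 nearest above the threshold, the 6 greatest differences that did not pass, and list members that were called or had the smallest p. For unnamed probes it is the 2 increases and 2 decreases with the smallest p. Members of other lists, neighbours, Stat5a and Stat5b were added. Members and lists were chosen with earlier results of these data known. Scan day is the name used here for the date in an array's column headers, which do not say what was done on that date. Array series are runs of close serial numbers, grouped here, and no label names them as batches. Replicate numbers follow deposit order and pair nothing. Alternatives were median centring, the authors' table, other filters, the 9 arrays alone, blocks, values within a batch, array weights and omitted arrays.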

Additional observations from a re-analysis of the deposited data

Results flagged for a closer look

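In 6 of 104 groups of arrays (52 genes at 2 ages) 1 array stood apart from the rest of its age by Dixon's criterion, which chance meets in about 1 in 20 groups. The gap of that array to its neighbour, as a share of the whole range, was 0.727 for Ndn at week 10, where replicate 3 was highest (13.18 against 12.60). It was 0.726 for Sox11 at week 10, where replicate 1 was lowest (9.03 against 10.43), and 0.734 for Jun at week 10, where replicate 3 was lowest (15.31 against 16.20). At week 22 it was 0.959 for Trim34a, highest in replicate 2 (11.49 against 10.79), 0.894 for Olfr1253, highest in replicate 3 (11.48 against 8.51), and 0.882 for Krtap6-1, lowest in replicate 3 (7.76 against 8.14).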

How the results depend on the processing

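No paired analysis was possible because the labels give no replicate numbers. Leaving out each of the 9 arrays in turn gave 1211 to 2475 called probes and 14 to 30 called named genes. The called probes numbered 4 within scan day 1, 682 within scan day 2 and 450 within array series 4, 5158 with array weights and 743 without week 22 replicates 3 and 4. Within array series 3, limma called 0 probes, with 3295 at an unadjusted p under 0.05. Series 3 and scan day 1 each hold 1 week 22 array, assumed to vary like the other ages there, so these results show little about stability. The called named genes numbered 15 with scan day as a block, 0 within scan day 1, 7 within scan day 2, 0 within series 3, 8 within series 4, 63 with array weights and 11 without week 22 replicates 3 and 4. Scan day 1 holds 4 of the 5 week 10 arrays and 1 of the 4 week 22 arrays, so day and age go together in part. With array weights 53.3% of the calls were increases.

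Among the medians of the gene lists, fat genes had 0.78 with median centring and 0.19 within day 1. The 3 genes of the epithelium list (Krt23, Fgf11 and Fgf21, of which Krt23 alone is a keratin) had -0.14 with the day block, 0.16 within day 1 and 0.65 within series 3. Chemokine genes had 1.08 within day 1, 0.35 within series 3, 3.83 within series 4 and 0.93 without week 22 replicates 3 and 4. Leukocyte genes had 0.83, 1.05 and 0.85 within day 1, day 2 and series 3, 0.83 without week 22 replicates 3 and 4 and 0.81 without the 3 week 10 arrays with high hair keratin signal. The interferon and MHC list had 1.11 within day 1. Hair genes had 0.36 within day 2 and 0.44 without those 3 arrays. Imprinted genes had -0.63 within day 2 and -0.40 within series 3, neural genes 0.26 within day 2, and milk genes 6.39 within series 3. The causes were not tested. Over 48 named genes and 23 alternatives, 831 results kept their side of the threshold, 222 lost the call, 50 gained one and 0 of the called values changed direction, and Olfr1253 was not tested under the filter of 3 of 9 arrays.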

Other observations

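Probes that have no gene name here held the smallest adjusted p-values of the whole comparison (limma, Benjamini-Hochberg). The Celera gene mCG14724.3 had 12.37 ± 0.18 (SD, n = 5) at week 10 and 16.10 ± 0.33 (SD, n = 4) at week 22, a difference of 3.74 ± 0.19 (adjusted p 6.45e-07), and 15.60 at week 19. The gene mCG123155.1 had 12.22 ± 0.07 at week 10 and 14.76 ± 0.15 at week 22 (2.54 ± 0.15, adjusted p 2.17e-06). The smallest adjusted p-values among the decreases were those of mCG9218.2 (-2.46 ± 0.27, adjusted p 0.000152), above background on all 5 week 10 and 2 of 4 week 22 arrays, and mCG54122.2 (-1.33 ± 0.16, adjusted p 0.00023). In each of these 4 the arrays of the 2 ages did not overlap.

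The kind of identifier went with the calls. Of the kept probes designed to AK-numbered cDNA clones, 7.11% were called, 52 higher and 87 lower, so 37.4% of the calls were increases. Of those with Celera gene numbers, 12.5% were called and 66.8% of the calls were increases. With the probes ranked by signal in 4 bins of equal size, in bin 2, 31.5% of the AK calls and 75.3% of the Celera calls were increases, and in the brightest bin 38.9% (18 calls, 7 of them higher) and 58.2%. The dimmest bin held 862 of the 1955 AK probes and 4183 of the 18348 Celera probes. From the dimmest bin to the brightest, 3.83%, 8.23%, 10.5% and 15.8% of the AK probes were called. For the Celera probes it was 5.79%, 13.5%, 15.4% and 14.3%. No test was made of the differences between AK and Celera probes, and their cause was not tested.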
